A study of Homo sapiens with 6 samples.

Results

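The genes described here are the cadherins, the FAT and Dachsous giants, the CELSR receptors and the unclustered protocadherins. They were taken from the deposited table by symbol alone: CDH or PCDH followed by a number, FAT1 to FAT4, DCHS1 and DCHS2, and CELSR1 to CELSR3. The rule found 43 of 19937 gene rows, and no measured value entered it. The RNA came from SK-N-BE(2) cells, a human neuroblastoma line in long culture use, and was sequenced as 6 libraries, with 3 titled sgcon (a control guide, as far as the title says) and 3 titled sgGPR91 (a guide against GPR91, the succinate receptor encoded by SUCNR1). Every library came from drug-treated cells, exposed over 48 hours. One label names doxorubicin (100 nmol/L) and another DOX (1.5 µg/ml). The labels do not settle which applied, and no untreated library was used here. Nor do they say whether the edited cells were a clone or a pool.

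The genotype tags contradict the titles: libraries titled sgcon are tagged as knockout and those titled sgGPR91 as control. Groups follow the titles, and every direction below turns around if the tags are right. SUCNR1 itself had 1, 0 and 2 reads in the sgcon libraries and 1, 0 and 0 in the sgGPR91 libraries, too few to check either label. Replicates are not stated to be separate cultures, so p-values set a group difference only against the scatter of these libraries, and that scatter can be technical. In bulk RNA, fewer cells that express a gene and less RNA per cell cannot be told apart.

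Cadherins are calcium-dependent adhesion proteins whose extracellular repeats bind partners on neighbouring cells. Classical cadherins of type I and type II hold catenins on their cytoplasmic tails and so link to actin. Protocadherins lack the catenin-binding tail and are best known from the nervous system, where they act in cell sorting, axon growth and synapse formation. FAT and Dachsous proteins are very large cadherins that bind each other between cells and act on planar polarity and Hippo signalling, and CELSR proteins are adhesion G protein-coupled receptors with cadherin repeats. In neural crest, the origin of neuroblastoma, N-cadherin and several type II cadherins are known to change as cells leave the neural tube and migrate.

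A RefSeq promoter entry was found for 26 members, 6 of them among the 11 called. Promoters of 3 called protocadherins are shown because these genes differed in opposite directions and, among called protocadherins, have the RefSeq start closest to the deposited one, within 46 bases. Each is the 250 bases before the RefSeq start on GRCh38.p14, written 5′ to 3′ on the gene's own strand. Capitals mark TATAAA and CCAAT, or their reverse complements, the letters of common core promoter elements.
PCDH7 (chr4:30720119-30720368, plus strand): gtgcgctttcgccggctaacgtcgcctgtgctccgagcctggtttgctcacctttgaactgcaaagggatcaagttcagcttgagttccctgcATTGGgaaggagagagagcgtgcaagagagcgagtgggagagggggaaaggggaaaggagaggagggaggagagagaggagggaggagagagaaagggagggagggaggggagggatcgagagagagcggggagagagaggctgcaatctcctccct
PCDH8 (chr13:52848641-52848890, minus strand): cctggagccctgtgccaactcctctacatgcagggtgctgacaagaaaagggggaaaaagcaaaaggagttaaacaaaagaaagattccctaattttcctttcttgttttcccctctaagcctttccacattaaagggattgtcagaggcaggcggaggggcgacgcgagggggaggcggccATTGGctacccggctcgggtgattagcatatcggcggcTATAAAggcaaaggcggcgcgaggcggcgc
PCDH18 (chr4:137532495-137532744, minus strand): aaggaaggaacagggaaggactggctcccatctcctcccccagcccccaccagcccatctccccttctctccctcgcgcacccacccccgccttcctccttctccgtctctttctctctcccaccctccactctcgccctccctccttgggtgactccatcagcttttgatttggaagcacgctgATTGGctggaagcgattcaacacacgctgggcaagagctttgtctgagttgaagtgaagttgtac
All 3 windows hold 1 CCAAT match, which 32.0% of 35116 promoter windows of the same length also do. Only the PCDH8 window of these 3 has a TATAAA match, a match found in 10.7% of all windows. The E-box CAGGTG, the letters bound by SNAI and ZEB factors, was searched on both strands as well and is in none of the 3, against 17.5% of all windows. CACGTG, the E-box bound by MYC proteins, is in 0 windows of the 26 members with a RefSeq entry, against 6.34% of all. These matches describe letters in a window and say nothing about binding.

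Which members did this line express? Per length, 12 of the 43 had a mean deposited FPKM (reads per kilobase of listed gene length, scaled to library size) of at least 1 in sgcon and 10 had one in sgGPR91, with 9 in both. The 5 highest by the mean of all 6 libraries were CDH24, CDH2, CELSR2, DCHS1 and PCDH18, and in sgGPR91 alone PCDH1 took the place of PCDH18. CDH24, a catenin-binding type II cadherin, had FPKM levels of 40.65, 44.97 and 43.25 in the sgcon libraries and 30.51, 36.25 and 32.85 in the sgGPR91 libraries. CDH2, which encodes N-cadherin, the main classical cadherin of neural cells, had FPKM levels of 26.4, 27.1 and 26.4 and of 31.3, 29.8 and 28.4. PCDH1, CDH18, CELSR3 and CDH11 completed the 9. PCDH8, CDH22 and PCDH9 reached a mean FPKM of 1 in sgcon only, at 1.50, 1.09 and 1.03, and PCDH7 in sgGPR91 only, at 2.57. At the other end, CDH1, the E-cadherin gene that defines epithelia, had 1 read in all 6 libraries, and CDH5, the VE-cadherin gene of endothelium, had 3.

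**Figure D1:**
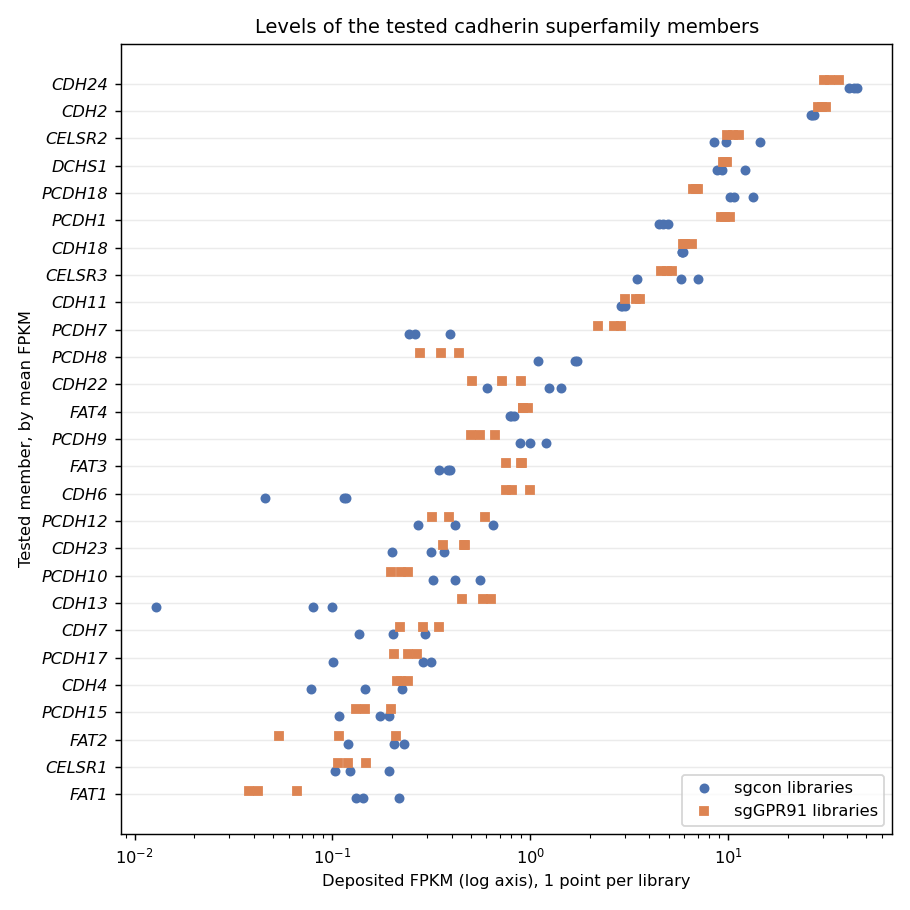
Deposited FPKM (log axis) of the 27 tested members, with 1 point per library: circles are the 3 sgcon and squares the 3 sgGPR91 libraries. CDH24 and CDH2 stand at the top in both groups, and the 2 groups lie apart for PCDH7, CDH6 and CDH13. CDH6 and CDH13 passed the filter on low counts through sgGPR91 only.

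For differences between the groups, 27 members had enough reads to be tested and 16 did not. Of the 27, edgeR's quasi-likelihood test called 11 in the libraries labelled sgGPR91, 5 of them higher and 6 lower, at an adjusted p under 0.05 over all 12701 genes tested. Calls were common in general: 20.4% of all genes tested were called higher, 21.1% lower and 41.5% in either direction, so the 40.7% of tested members called is close to the share of all genes. A call with at least a 2-fold difference was made for 7 tested members (25.9%) and for 6.97% of all genes tested. Of these 7, CDH6, CDH13 and FAT1 passed the filter on low counts through 1 group only, so for them a difference was built into being tested and the 2-fold share is not evidence about the family. The median log2 fold change was -0.0024 over the tested members, which went both ways, and -0.0055 over all genes tested. The median size without sign was 0.555 and 0.253 on the log2 scale, with the same limit from the filter.

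**Figure D2:**
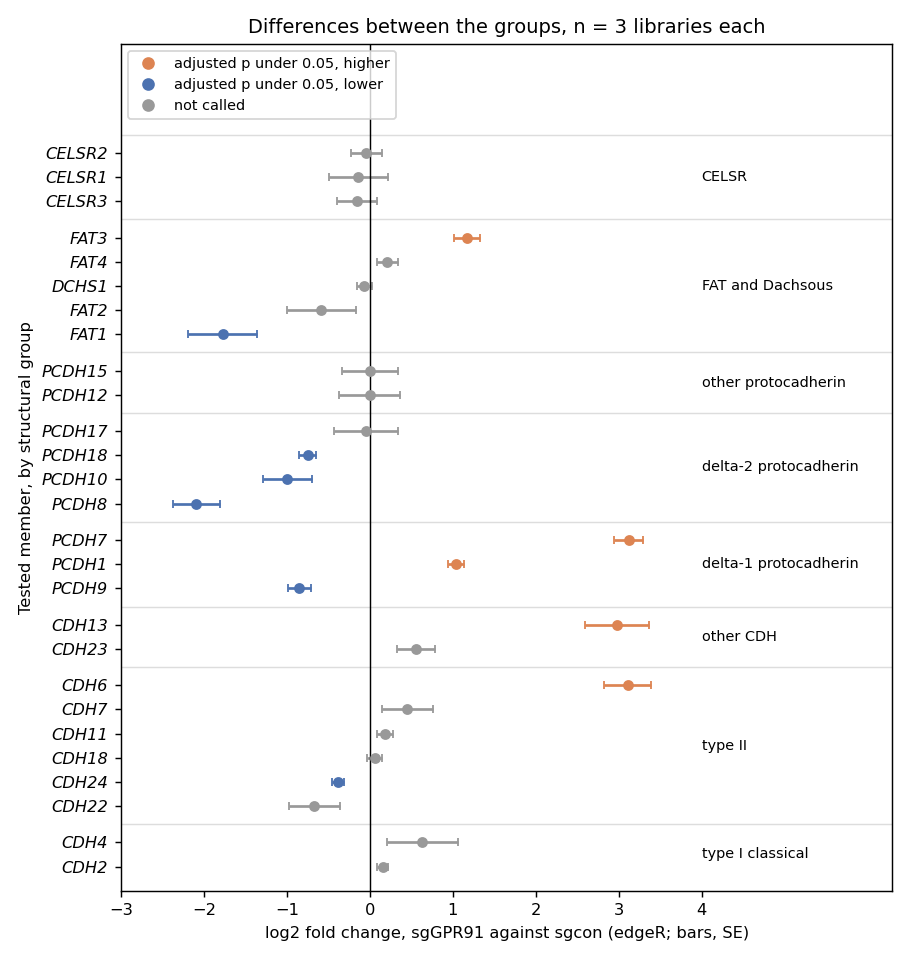
log2 fold change of each tested member in sgGPR91 against sgcon (horizontal axis; bars are the SE, n = 3 libraries per group), by structural group. PCDH7, CDH6 and CDH13 lie near 3 on the log2 scale, PCDH8 and FAT1 lie lowest, and no type I or CELSR member was called. CDH6 and CDH13 passed the filter on low counts through sgGPR91 only, and FAT1 through sgcon only.

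Among the classical type I cadherins, CDH2 and CDH4 were tested and neither was called. CDH2 stood at 230.2, 235.9 and 222.4 CPM (reads scaled to library size, with TMM scaling) in sgcon and at 270.8, 253.9 and 242.7 CPM in sgGPR91. All sgGPR91 libraries were thus above all sgcon libraries. Groups that did not overlap, in either direction, were found for 55.6% of tested members and 50.9% of all genes tested. The 4 such members that were not called are CDH2, CDH11, CDH23 and FAT4. The log2 fold change was 0.16 ± 0.07 (SE) with an edgeR adjusted p of 0.0705, which became 0.0458 with upper-quartile scaling and 0.0443 with total counts only. CDH4, the R-cadherin gene, had 28 and 43 reads in the 2 groups and a log2 fold change of 0.63 ± 0.43 (edgeR adjusted p = 0.255).

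Type II cadherins held both a fall in the most expressed member and a large rise in a scarce one. CDH24 was at 155.0, 170.9 and 159.0 CPM in sgcon and at 115.2, 134.8 and 122.5 CPM in sgGPR91. The groups did not overlap, and the log2 fold change was -0.38 ± 0.07 (edgeR adjusted p = 0.00035). CDH6, known as K-cadherin and expressed in kidney and neural crest, was at 1.45, 1.48 and 0.555 CPM in sgcon and at 9.42, 9.92 and 12.3 CPM in sgGPR91. Every sgGPR91 library was far above every sgcon library, in reads 83, 82 and 104 against 13, 15 and 4. Its difference was 8.61-fold, with a log2 fold change of 3.11 ± 0.29 (edgeR adjusted p = 8.053e-08). CDH6 passed the filter on low counts through sgGPR91 only, where it is high, so a difference was built into its being tested. CDH11, the OB-cadherin gene of mesenchyme, and CDH18, a type II cadherin of the nervous system, were not called, at log2 fold changes of 0.18 ± 0.10 and 0.06 ± 0.09. CDH7, expressed in migrating neural crest, was at 3.05 ± 1.08 and 4.12 ± 0.89 CPM (SD, n = 3) and was not called either. CDH22 had the largest difference among the tested members that were not called, with 7.16, 6.23 and 2.91 CPM in sgcon and 4.43, 3.51 and 2.48 CPM in sgGPR91. Its log2 fold change was -0.67 ± 0.31 (edgeR adjusted p = 0.0941), and it was called without sgcon replicate 3, the lowest sgcon library for this gene (-0.94, adjusted p = 0.0068), and with the replicate number as a block (-0.63, adjusted p = 0.0487).

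CDH13 was the other cadherin with a large rise. It encodes T-cadherin, which lacks a cytoplasmic tail, is anchored to the membrane by a lipid and binds adiponectin. The sgcon libraries had 1.12, 0.890 and 0.139 CPM, from 10, 9 and 1 reads, and the sgGPR91 libraries had 4.99, 6.29 and 6.96 CPM, from 44, 52 and 59 reads. The groups lay well apart, and the log2 fold change was 2.98 ± 0.39 (7.91-fold, edgeR adjusted p = 5.227e-06). CDH13 passed the filter on low counts through sgGPR91 only, so here too a difference was built into its being tested. CDH23, which with PCDH15 forms the tip links of hair cells, had a log2 fold change of 0.56 ± 0.23 with non-overlapping groups and was not called (edgeR adjusted p = 0.0566). It was called with the replicate block, without sgcon replicate 3 and with no count filter. PCDH15 was level, at 2.45 ± 0.69 and 2.44 ± 0.52 CPM (SD, n = 3).

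The 3 delta-1 protocadherins that the naming rule caught were all tested and all called, in 2 directions. Of all genes tested, 41.5% were called, and 3 genes are too few for a statement about the delta-1 group. PCDH11X and PCDH11Y, the delta-1 genes outside the rule, had 8 and 3 reads in all and were not tested. PCDH7, also known as NF-protocadherin or BH-protocadherin, had 3.020, 3.265 and 4.716 CPM in sgcon and 32.6, 26.7 and 34.8 CPM in sgGPR91. No library of one group came near those of the other, and the difference was 8.70-fold (log2 fold change 3.12 ± 0.18, edgeR adjusted p = 1.31e-10). PCDH1, an adhesion protein of epithelia and neurons, stood at 26.845, 27.996 and 28.854 CPM in sgcon and 61.2, 54.1 and 56.6 CPM in sgGPR91. Spread within both groups was small beside the 2.06-fold difference (log2 fold change 1.04 ± 0.09, edgeR adjusted p = 5.723e-08). PCDH9, a brain protocadherin, went the other way, with 37.9, 27.8 and 30.2 CPM in sgcon and 15.7, 20.5 and 17.2 CPM in sgGPR91. The groups were separate and the log2 fold change was -0.85 ± 0.14 (edgeR adjusted p = 6.407e-05).

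Of the 4 delta-2 protocadherins tested, 3 were called, each lower in sgGPR91, where 21.1% of all genes tested were called lower. With so few genes this is not a result about the delta-2 group. PCDH10 and PCDH18 also lie on chromosome 4 among mostly lower neighbours, described below. PCDH8, the paraxial protocadherin that is also induced by activity at synapses, had 8.837, 9.002 and 5.549 CPM in sgcon and 2.27, 1.82 and 1.42 CPM in sgGPR91. Its lowest sgcon library was more than any sgGPR91 library, and the difference was 4.26-fold (log2 fold change -2.09 ± 0.29, edgeR adjusted p = 9.647e-06). PCDH18, the protocadherin with the highest FPKM in sgcon but below PCDH1 in sgGPR91, had 91.2, 69.5 and 70.1 CPM in sgcon and 46.3, 47.0 and 44.2 CPM in sgGPR91. The sgGPR91 libraries were close to each other and all below sgcon, with a log2 fold change of -0.75 ± 0.10 (edgeR adjusted p = 9.54e-06). PCDH10, known as OL-protocadherin and needed for axon growth in the forebrain, was at 3.36, 5.74 and 4.16 CPM in sgcon and at 2.27, 2.42 and 2.01 CPM in sgGPR91. Its log2 fold change was -0.99 ± 0.30 (edgeR adjusted p = 0.0121). The PCDH10 call was the least stable of the 11: it ended without sgcon replicate 2, the highest library (-0.74, adjusted p = 0.101), and without sgGPR91 replicate 3 (-0.92, adjusted p = 0.0534). PCDH17, a presynaptic protocadherin, had 1.99 ± 1.01 and 1.99 ± 0.28 CPM (SD, n = 3) and was not called. PCDH12, a protocadherin of endothelium and placenta, was also level, with 69 and 68 reads in the 2 groups. A small part of its exons overlaps RNF14, a gene with more reads on the other strand, and the strand setting is not given.

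**Figure D3:**
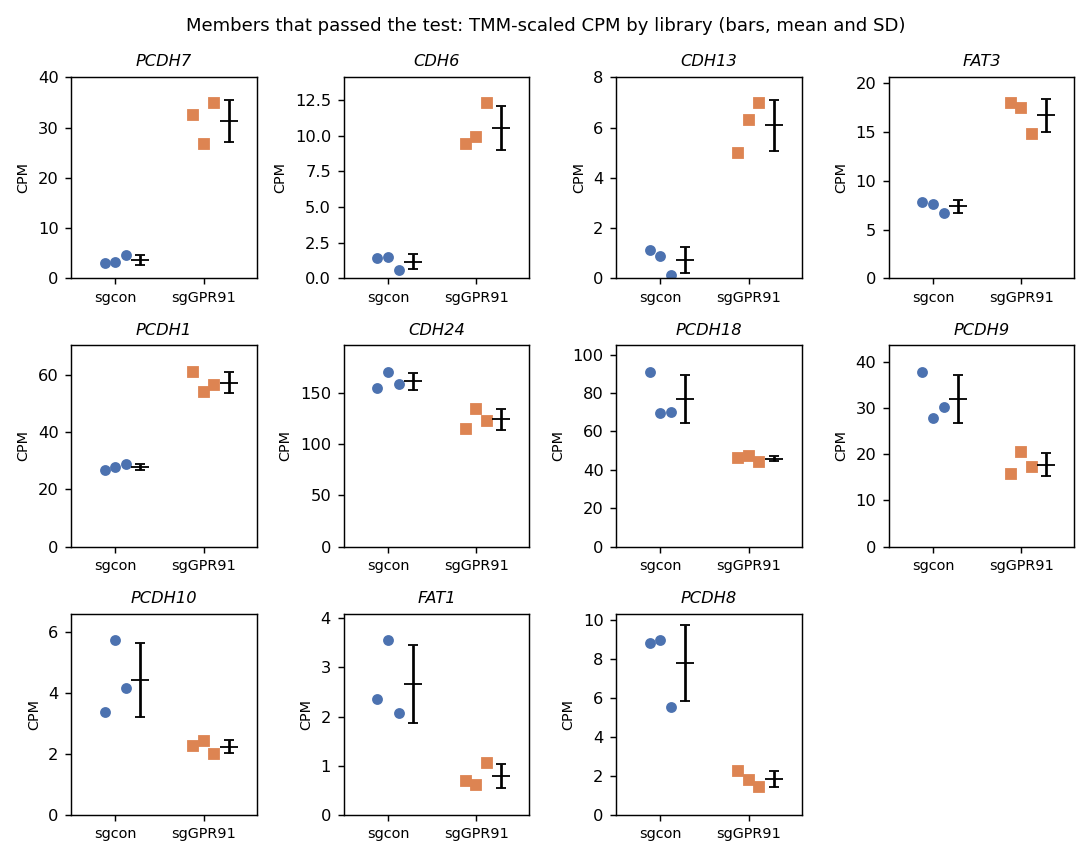
TMM-scaled CPM of the 11 called members in each library (points) with the group mean and SD (bars), each panel on its own axis from 0. In every panel the 3 sgcon and 3 sgGPR91 libraries do not overlap, with 3.02 to 4.72 against 26.7 to 34.8 CPM for PCDH7 and 5.549 to 9.002 against 1.42 to 2.27 CPM for PCDH8.

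FAT genes also held calls in both directions. FAT3, a giant cadherin of neurons, had 7.83, 7.62 and 6.66 CPM in sgcon and 17.9, 17.4 and 14.7 CPM in sgGPR91. The groups were wide apart for their spread, and the difference was 2.25-fold (log2 fold change 1.17 ± 0.16, edgeR adjusted p = 9.414e-06). FAT1, whose product acts on actin and on Hippo signalling, was low throughout, at 2.35, 3.56 and 2.08 CPM in sgcon and at 0.681, 0.605 and 1.06 CPM in sgGPR91. With 72 and 20 reads in the 2 groups, its log2 fold change was -1.77 ± 0.41 (edgeR adjusted p = 0.00197), and on log2(FPKM + 1), a scale that understates low genes, limma did not call it (adjusted p = 0.106). FAT1 passed the filter on low counts through sgcon only, where it is high, so a difference was built into its being tested. FAT4 and DCHS1 encode a receptor and ligand pair. FAT4 was at 17.2 ± 0.16 and 19.9 ± 0.75 CPM (SD, n = 3), with a log2 fold change of 0.21 ± 0.12 (edgeR adjusted p = 0.175). DCHS1 was at 95.9, 101.4 and 128.7 CPM in sgcon and at 106.6, 100.6 and 102.8 CPM in sgGPR91, with a log2 fold change of -0.07 ± 0.09 (edgeR adjusted p = 0.583). FAT2 was not called (-0.58 ± 0.42), and its sgGPR91 libraries ranged from 0.795 to 3.07 CPM.

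CELSR genes, which encode the vertebrate counterparts of the fly polarity protein Flamingo, gave no call with all 6 libraries. CELSR2 was at 110.7, 126.8 and 182.4 CPM in sgcon and at 127.1, 144.3 and 135.1 CPM in sgGPR91. Its sgcon libraries spanned the whole sgGPR91 range, and replicate 3 was the highest. The log2 fold change of -0.04 ± 0.18 (edgeR adjusted p = 0.88) turned to 0.19 without that library, with an adjusted p of 0.0459. CELSR3 spanned 49.0 to 95.4 CPM in sgcon and 64.0 to 71.4 CPM in sgGPR91, with a log2 fold change of -0.15 ± 0.24. Without sgcon replicate 1, its lowest library, CELSR3 was called lower (-0.39, edgeR adjusted p = 0.0015), and without sgcon replicate 3 it stood at 0.04. CELSR1 held 57 and 51 reads.

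Of the 16 untested members, 4 had 0 reads (CDH9, CDH16, CDH19 and PCDH20), 6 had 1 to 9 reads and 6 had at least 10. A count of 0 allows up to 3 reads, which is 0.293 to 0.424 CPM depending on the library. For PCDH20 this limit may not hold. Another gene on the same strand covers 95.8% of its exon bases, and how shared reads were assigned is not given. CDH10, a type II cadherin of the brain, had 7, 17 and 7 reads in sgcon and 2, 0 and 0 in sgGPR91, a read ratio of 15.1 with a 95% exact binomial interval of 3.84 to 130.1 that covers counting error only. CDH15, the M-cadherin gene of muscle, had 10 reads in sgcon and 52 in sgGPR91, a ratio of 5.34 toward sgGPR91 (interval 2.69 to 11.8). CDH20 had 11 and 40 reads, a ratio of 3.74 toward sgGPR91 (interval 1.88 to 8.08). With no count filter edgeR called these 3, with adjusted p-values of 0.00083 for CDH10, 0.00072 for CDH15 and 0.0155 for CDH20. CDH3, the P-cadherin gene, had 22 and 6 reads, CDH26 had 26 and 33, and PCDH19, a delta-2 protocadherin gene on the X chromosome, had 10 and 4. None of the last 3 was called in that run.

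Members lie in groups along chromosomes, so each was set beside the other tested genes that start within 5 Mb. On chromosome 4, where 5 members were tested, 3 of the 4 called members had mostly lower neighbours. PCDH10 (133149294 to 133208606) had 5 tested neighbours, all 5 called lower, with a median log2 fold change of -0.61 against -0.99 for the gene. PCDH18 (137518918 to 137532494) had 17, of which 10 were lower, with a median of -0.48 against -0.75. FAT1 (186587794 to 186726722) had 27, of which 15 were lower, with a median of -0.41 against -1.77. The part of the chromosome in these 3 differences was not tested. FAT4 (125314918 to 125492932) sat among neighbours of which 18 of 22 were lower, with a median of -0.61, and was itself at 0.21.

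For the other called members with neighbours, the neighbours' medians lay between -0.0031 and 0.18. PCDH7, on the same chromosome (30720415 to 31146805), had 5 neighbours with a median log2 fold change of 0.01, and CDH6 on chromosome 5 (31193686 to 31329146) had 16 with a median of 0.03. For CDH13 on chromosome 16 (82626965 to 83800640) the median of 34 neighbours was 0.13. PCDH8 on chromosome 13 (52842889 to 52848641) fell while its 26 neighbours had a median of 0.10. CDH24 on chromosome 14 (23047062 to 23057538) had 74 with a median of -0.0031. PCDH1 and PCDH12 lie side by side on chromosome 5 and share 105 neighbours with a median of 0.18, yet PCDH1 was 2.06-fold higher and PCDH12 stood at -0.0024. PCDH9 on chromosome 13 (66302834 to 67230445) had 0 tested neighbours. FAT3 on chromosome 11 (92224818 to 92896473) had 27 with a median of 0.06.

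**Figure D4:**
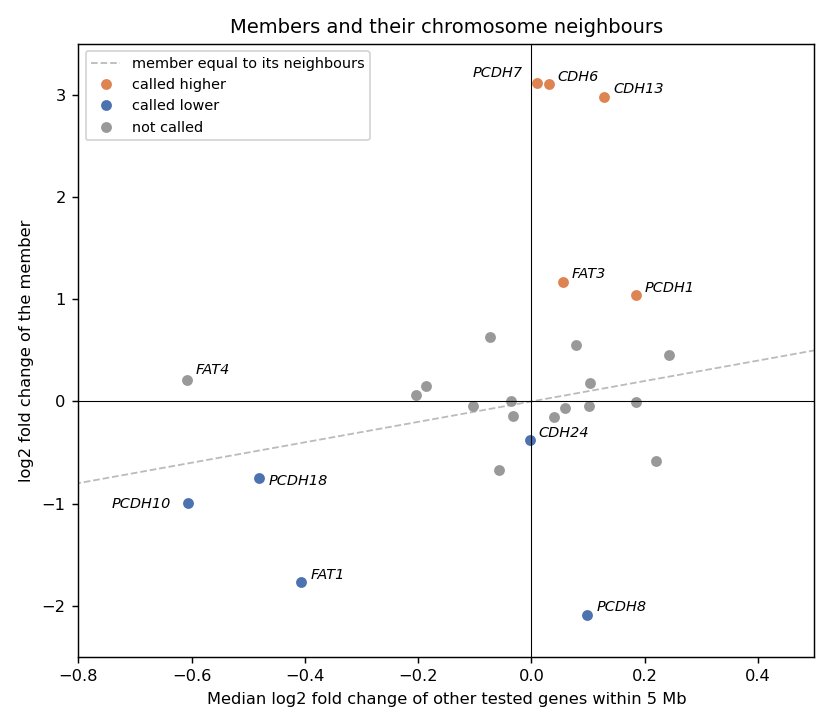
log2 fold change of each tested member (vertical axis) against the median log2 fold change of the other tested genes that start within 5 Mb (horizontal axis), for the 26 members with such neighbours. PCDH10, PCDH18 and FAT1 lie at neighbour medians between -0.61 and -0.41, whereas PCDH7, CDH6, CDH13 and PCDH8 lie near 0.

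The proteins that cadherins work with were taken from lists of partners, enzymes and regulators. Of 22 catenin and junction plaque genes, 18 were tested, of which 6 were higher (33.3%) and 5 lower (27.8%), against 20.4% and 21.1% of all genes tested, with a median log2 fold change of 0.08. TJP1 (ZO-1, a junction scaffold), AJUBA (a LIM protein of junctions) and VCL (vinculin, which links catenins to actin) were higher by 0.51 ± 0.08, 0.47 ± 0.11 and 0.39 ± 0.07 on the log2 scale. PKP2 (a plakophilin of desmosomes), PLEKHA7 (a junction protein bound to p120-catenin) and CTNND1 (p120-catenin itself) were lower, at -0.71 ± 0.11, -0.60 ± 0.13 and -0.43 ± 0.15. The CTNND1 call ended in 6 of 15 other settings: DESeq2 (adjusted p = 0.0501), both limma runs and 3 runs that left out sgcon replicate 3, sgGPR91 replicate 1 or sgGPR91 replicate 2. CTNNB1, the beta-catenin gene, was picked with its values known and was at 187.4, 177.6 and 163.0 CPM in sgcon and at 223.6, 228.7 and 228.5 CPM in sgGPR91, with a log2 fold change of 0.37 ± 0.07 (edgeR adjusted p = 0.000265).

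Genes of planar polarity and Hippo signalling, pathways in which CELSR, FAT or Dachsous proteins act, also went both ways. Of 28, 27 were tested, of which 6 were higher (22.2%) and 7 lower (25.9%), near the shares of all genes, with a median log2 fold change of 0.04. LATS2, a Hippo kinase gene, was scarce at 0.895, 0.396 and 1.53 CPM in sgcon and at 5.22, 5.69 and 5.66 CPM in sgGPR91 (log2 fold change 2.62 ± 0.36, edgeR adjusted p = 1.211e-05). YAP1, the coactivator that LATS kinases restrain, was at 2.13, 1.58 and 0.971 CPM and at 5.11, 4.36 and 5.66 CPM (1.66 ± 0.31, edgeR adjusted p = 0.000309). Both passed the filter on low counts through sgGPR91 only, where they are high, so a difference was built into their being tested. VANGL1, a polarity partner of CELSR proteins, was higher by 0.50 ± 0.12. The kinase cofactor MOB1B, on chromosome 4, was lower at -0.69 ± 0.08, as were ANKRD6 (-0.59 ± 0.19) and the polarity adaptor DVL1 (-0.39 ± 0.07). The ANKRD6 call ended without sgGPR91 replicate 1 (adjusted p = 0.0702) and without sgGPR91 replicate 2 (0.0571).

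Of 20 genes listed for cadherin maturation and cleavage, 18 were tested. Of these, 10 were higher (55.6%, against 20.4% of all genes tested) and 2 lower (11.1%, against 21.1%). The median log2 fold change was 0.28 against -0.0055 over all genes tested. The list is broad, with POMT1, POMT2 and subunits of the gamma-secretase protease complex, and whether each gene acts on cadherins here was not tested. TMTC1, which adds O-mannose to cadherin repeats, was higher by 0.71 ± 0.12, ADAM10, the protease that sheds N-cadherin, by 0.43 ± 0.07, and ADAM15 by 0.40 ± 0.07. POMT1 and TMTC2, both of O-mannosylation, were lower at -0.48 ± 0.09 and -0.36 ± 0.07. The count of 10 became 6 with DESeq2, with limma on FPKM at either pseudocount, and without sgcon replicate 2, sgGPR91 replicate 1 or sgGPR91 replicate 3.

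Transcription factors known to act on cadherin promoters gave 2 calls each way (16.7%) among 12 tested of 17, with a median log2 fold change of -0.03. Of all genes tested, 20.4% were called higher and 21.1% lower. SNAI2 (Slug) was at 17.34, 13.95 and 15.95 CPM in sgcon and at 25.77, 29.04 and 28.79 CPM in sgGPR91 (0.83 ± 0.12), and GRHL1, of the grainyhead family, was higher by 1.07 ± 0.31. SNAI1 (Snail) was lower, at 20.2, 19.4 and 16.9 CPM against 11.8, 10.8 and 11.9 CPM (-0.72 ± 0.14), and TWIST1 was lower at -0.59 ± 0.09. The GRHL1 call ended without sgcon replicate 2 (adjusted p = 0.0504) and without sgGPR91 replicate 3 (0.0655). Relatives outside the naming rule were 18 genes, 7 of them tested, with a median of 0.11. Of the 7, 2 were higher (28.6%) and 1 lower (14.3%), too few to set against the shares of all genes. RET, a receptor kinase with cadherin-like domains, was higher at 318.8, 385.6 and 399.7 against 747.6, 606.6 and 657.3 CPM (0.87 ± 0.09). CDHR1 was higher by 0.72 ± 0.15 and the calsyntenin gene CLSTN1 lower at -0.26 ± 0.07. All 7 desmosomal cadherin genes listed (DSC and DSG) had 0 reads in the 6 libraries.

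**Figure D5:**
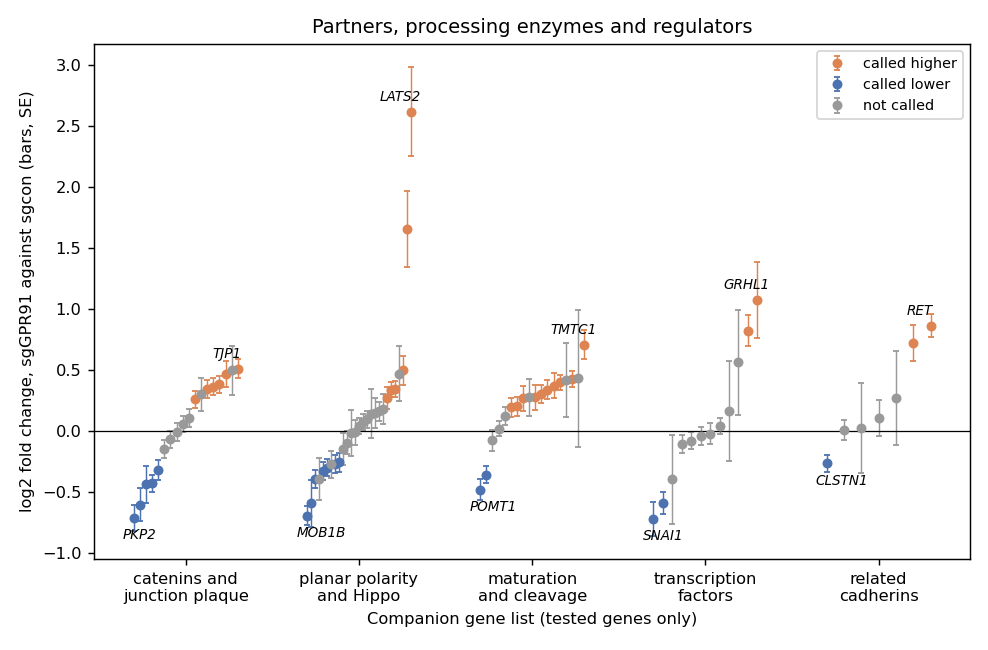
log2 fold change (vertical axis; bars are the SE) of each tested gene in 5 lists of cadherin partners, enzymes, regulators and relatives, ordered within a list by value. LATS2, which passed the filter through sgGPR91 only, is at 2.62, and the called genes of the maturation and cleavage list are 10 higher and 2 lower.

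Markers of cell identity moved between the groups as well. Of 10 neuroblast markers, 8 were lower (80%, against 21.1% of all genes tested) and 1 higher (10%, against 20.4%) in sgGPR91. Their summed levels were 3058 to 3571 CPM in sgcon and 2416 to 2484 CPM in sgGPR91, so these markers of the labelled cell type were present in both. Among mesenchymal markers, YAP1 was higher and FN1, the fibronectin gene, was lower. Epithelial markers summed to 18.3 to 25.1 and 15.6 to 20.2 CPM, with EPCAM lower, CLDN4 higher and ESRP1 at 0 reads. Endothelial markers summed to 0.336 to 1.66 and 5.45 to 6.92 CPM, with EMCN at 0 to 0.495 and 5.08 to 6.24 CPM, while PECAM1 had 2 and 0 reads and KDR 0 and 1. EMCN passed the filter on low counts through sgGPR91 only, so a difference was built into its being tested. The part of these shifts in the members' differences was not tested.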

How the data were processed

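Deposited values were whole-number read counts per gene and FPKM for 6 libraries (3 sgcon, 3 sgGPR91), per the file headers. The authors' FPKM equalled counts per kilobase of listed length and scaled to the column total, with a largest relative difference of 1.665e-14. HISAT2, Bowtie2 and RSEM are named in the submitters' processing notes, while roles, versions, strand setting and genome build are not given in the sources used here. All 43 members are in GENCODE version 29 on GRCh38, 19 with an identical start. Per-library totals were 7070189 to 10252425 counts, of which 7709 to 10100 fell on the members.

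Counts were tested with edgeR 4.0.16 (R 4.3.3) after filterByExpr (minimum count 10 and total 15), with TMM scaling, a robust quasi-likelihood fit without covariates, and Benjamini-Hochberg adjustment over 12701 genes. The SE is the absolute log2 fold change over the square root of F. Alternatives used DESeq2 1.42.0, limma 3.58.1, other scalings and filters, a replicate block and each library left out. The edgeR steps were tested on simulated data. Of 581 unnamed rows and 7 repeated names, each row was kept under its identifier. Full values were given for called members and the 5 with the highest FPKM, the 2 largest differences among other tested members, untested members with at least 10 reads, and up to 3 called genes per direction in each list. Values of other members were added with their results known. Members and lists were chosen with earlier results of these data known. Without a stated strand setting, reads of genes that overlap on opposite strands cannot be told apart. In GENCODE, 18.9% of CDH23 exon bases overlap C10orf105 (3 reads in all) on the other strand. For PCDH12, 1.58% overlap RNF14 (2334 reads in all), also on the other strand. Another gene with 0 reads covers 95.8% of PCDH20 exon bases on the same strand, where a strand setting would not separate the reads. The summed level of the mesenchymal marker list is not reported here.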

Additional observations from a re-analysis of the deposited data

How the results depend on the processing

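RLE size factors, DESeq2 and limma on log2(FPKM + 0.1) kept all 11 called members and added none. The 5 higher members became 8 with no count filter, where 39 members were tested, and 5 to 9 when each library was left out, with 9 without sgcon replicate 3, when CDH15, CDH20, CDH23 and CELSR2 were added. Members called lower numbered 5 to 7 in those runs. With limma on log2(FPKM + 1), 9 of the 11 calls were kept, FAT1 and PCDH10 (adjusted p = 0.0503) being lost. The 10 higher genes of the maturation and cleavage list became 6 with DESeq2, with limma on log2(FPKM + 1) and with limma on log2(FPKM + 0.1). They numbered 6 to 10 when a library was left out. The 2 higher transcription factors became 1 to 3 in the same runs. CELSR2 (-0.04) ranged from -0.18 to 0.19 and DCHS1 (-0.07) from -0.15 to 0.0671 as log2 fold changes with a library left out. Without sgcon replicate 3 both turned positive, and without sgGPR91 replicate 1 CELSR2 turned to 0.0022. The cause was not tested. With the replicate number as a block, 6 members were called higher and 7 lower, all 11 calls among them. Deviations of same-numbered libraries had correlations of 0.15, 0.02 and 0.08, and those of unlike-numbered libraries ran from -0.13 to 0.05. The titles do not state that a number marks a shared batch, so the main test did not take the numbers as pairs. Depth limits the members below 1.16 CPM, the filter's minimum.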

Other observations

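Level ratios between members within a library, chosen after the values were seen, differed between the groups without overlap, as the calls of their members already imply. CDH24 exceeded CDH2 in FPKM by 1.54 to 1.66 times in sgcon and stood at 0.974 to 1.22 times it in sgGPR91. PCDH18 was 2.15 to 3.01 times PCDH1 in sgcon and 0.671 to 0.769 times in sgGPR91, so the order of these protocadherins differed between the groups. FAT4 was 2.04 to 2.39 times FAT3 in sgcon and 1.03 to 1.22 times in sgGPR91. PCDH7 went from 0.201 to 0.394 times PCDH9 in sgcon to 3.30 to 5.25 times in sgGPR91. Summed over all members, FPKM was 123.1 to 136.1 in sgcon and 123.4 to 127.8 in sgGPR91, and these ranges overlapped. The 5 highest members of each library held 78.3 to 79.3% of that sum in sgcon and 73.8 to 75.1% in sgGPR91. Ratios between genes rest on the listed gene lengths.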
